A study of Mus musculus with 19 samples.

Results

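Pla2g1b, Ephx2 and Rpl39l are 3 of the 12778 genes of a mouse expression matrix, and they were picked by name as a set because almost no read of them was found in reprogrammed cells that lack both the miR-290 and the miR-302 microRNA clusters, while all the other cells of the study had clear levels. None of the 3 belongs to the classical network of pluripotency factors. The near-absence in the double knockout (KO) is therefore how the genes were chosen. It is described below without a test, and for these 3 genes tests are given only for differences among the other groups, whose clear levels, but not the differences between them, entered the choice. The double KO is tested against WT only for genes other than these 3.

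The data are 19 QuantSeq libraries, in which reads come from the 3′ ends of messages with a poly(A) tail, from cells grown with LIF and serum. Induced pluripotent stem cells (iPSC) had been made from mouse embryonic fibroblasts with Oct4, Sox2 and Klf4 and were wild type (WT, 3 libraries), miR-290 KO, miR-302 KO or KO for both clusters (double KO, labelled miR-290KO;miR-302KO), with 2 colonies of 2 libraries in each KO genotype and collection after more than 18 passages. Embryonic stem cells (ESC) were miR-290 KO or miR-302 KO, with 2 libraries each, and no WT or double KO ESC were analysed here. The 2 libraries of a colony were averaged, so 13 samples entered each fit. Double KO samples thus entered the shared spread also in tests among the other groups. For the 3 genes that part of the spread was small through their choice, which can narrow the SE. The series text excepts the WT iPSC from its statement of independent derivation, so the WT libraries may stand for a single derivation, and p-values against WT then measure only the spread between these libraries.

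Pla2g1b encodes the pancreatic type of secreted phospholipase A2, which is made as an inactive proenzyme and cuts a fatty acid from membrane or dietary phospholipids. Ephx2 encodes soluble epoxide hydrolase, which turns epoxides of fatty acids such as arachidonic acid into diols and carries a separate phosphatase domain. Rpl39l encodes a paralog of the ribosomal protein Rpl39, a small protein at the peptide exit tunnel of the large subunit, and is known for its high level in male germ cells. MicroRNAs of the miR-290 and miR-302 families are abundant in early mouse pluripotent cells, and several of them share a seed, the stretch that pairs with target messages.

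That shared seed is shown here because it is what the double KO lacks from both loci. In RefSeq (GRCm38.p6), 11 mature 3p microRNAs of the clusters were matched. They need not be all members, as miR-302a-3p was not among the matches, so the counts hold for the matched ones only. Of these 11, 5 have the same bases 2 to 8, printed in capitals. Among the 5, 2 are from the miR-302 cluster on chromosome 3 and 3 from the miR-290 cluster on chromosome 7.
mmu-miR-302b-3p: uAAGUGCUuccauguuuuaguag
mmu-miR-302d-3p: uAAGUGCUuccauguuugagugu
mmu-miR-291a-3p: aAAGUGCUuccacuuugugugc
mmu-miR-294-3p: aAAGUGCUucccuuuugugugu
mmu-miR-295-3p: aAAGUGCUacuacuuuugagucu
The letters that pair with this seed, AGCACTT and the shorter GCACTT contained in it, were searched on the sense strand of every annotated 3′ UTR of each gene. Neither was found in any of Pla2g1b (longest 160 bases), Ephx2 (308 bases) or Rpl39l (446 bases). Among 20981 annotated genes, whose longest 3′ UTR had a median of 954 bases, 15.3% held the longer and 29.4% the shorter run of letters in any 3′ UTR.

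The 3 genes lie on different chromosomes, Pla2g1b (gene ID 18778) at chr5:115466142-115474722, Ephx2 (gene ID 13850) at chr14:66084372-66124522 and Rpl39l (gene ID 68172) at chr16:10170197-10174911 in GRCm38.p6. All are annotated as protein coding, and no other gene of the RefSeq table overlaps them. The sequence just upstream is shown for Pla2g1b, for Rpl39l and for its parent Rpl39, with every CG in capitals, because the upstream sequences differ in CG content while Pla2g1b and Rpl39l were both at 0 reads in the double KO. Each run ends at the base before the gene and reads 5′ to 3′ on the strand of the gene, plus for Pla2g1b and Rpl39l and minus for Rpl39.
Pla2g1b, chr5:115465892-115466141: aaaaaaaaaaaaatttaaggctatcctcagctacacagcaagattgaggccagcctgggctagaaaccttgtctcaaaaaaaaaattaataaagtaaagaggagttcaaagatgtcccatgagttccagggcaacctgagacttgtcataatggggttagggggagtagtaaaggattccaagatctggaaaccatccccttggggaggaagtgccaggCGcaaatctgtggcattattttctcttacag
Rpl39l, chr16:10169978-10170196: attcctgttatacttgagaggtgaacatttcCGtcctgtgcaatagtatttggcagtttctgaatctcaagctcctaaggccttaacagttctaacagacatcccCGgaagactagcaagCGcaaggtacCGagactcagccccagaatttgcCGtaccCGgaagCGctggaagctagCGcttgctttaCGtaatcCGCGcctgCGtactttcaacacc
Rpl39, chrX:37085223-37085472: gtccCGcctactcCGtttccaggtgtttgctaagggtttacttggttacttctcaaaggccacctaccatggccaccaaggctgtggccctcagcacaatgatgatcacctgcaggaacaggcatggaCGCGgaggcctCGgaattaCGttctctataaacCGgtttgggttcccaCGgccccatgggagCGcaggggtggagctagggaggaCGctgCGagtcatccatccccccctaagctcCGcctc
In the 300 bases from 250 before to 50 after the annotated transcript start, Pla2g1b had 2 CG and Rpl39l and Rpl39 had 17 each. At least 2 were present in 85.9% and at least 17 in 31.4% of 32851 RefSeq promoter windows of that length, whose median was 7. CG reads the same on both strands, so a single count covers both. These counts describe the upstream sequence only, and their part in the levels was not tested.

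Whole reads could be recovered from the deposited log2 values for all 3 genes in all 19 libraries, and levels are given as CPM (each gene's reads scaled to a common library size). Library size here is the sum of reads over the 12240 genes with recovered reads, not the full depth. It was 6438933 reads at the lowest and 24985927 at the highest (median 17474027). A single read is thus worth a small fraction of 1 CPM in any library. A library of miR-302 KO iPSC, colony 1 library 2, stood apart from the rest: its 20 highest genes took 17.1% of its reads against 8.6% to 13.4% elsewhere, and Rpl39 was at 319 CPM against 2716 to 4385 CPM in the other 3 libraries of that group. The summed level of 9 pluripotency markers with reads was 2686 to 4300 CPM in every group other than the double KO and 57.5 to 113 CPM in the double KO, where 3 of the 9 stayed at 10 CPM or more and 3 were under 1 CPM. The double KO cells thus carry the label iPSC with a far lower summed level of these markers. The part of that difference in the results below was not tested. In bulk RNA, fewer cells of a type and less RNA per cell cannot be told apart.

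**Figure D1:**
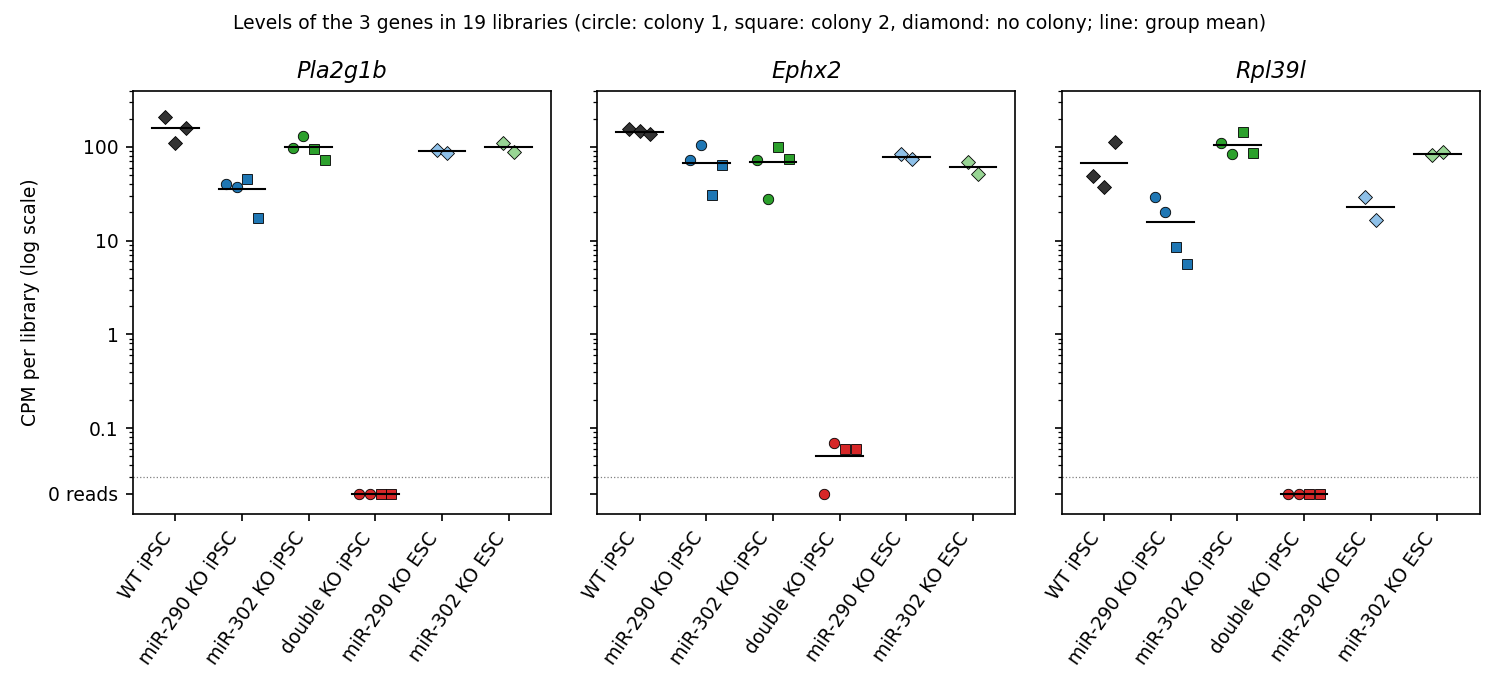
Level of each gene in CPM on a log axis for all 19 libraries, grouped by genotype and cell type, with libraries at 0 reads drawn below the dotted line and a bar at each group mean. The double KO libraries lie at or near 0 reads in all 3 panels. The miR-290 KO iPSC are the lowest of the other groups for Pla2g1b and Rpl39l, but not for Ephx2.

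Pla2g1b, the secreted phospholipase, had 0 reads in each of the 4 double KO libraries. In WT iPSC its level was 211, 111 and 159 CPM, and in miR-302 KO iPSC it was 96.7 and 132 CPM in colony 1 and 96.0 and 72.7 CPM in colony 2. In miR-290 KO iPSC it was 40.5 and 37.1 CPM in colony 1 and 45.5 and 17.5 CPM in colony 2. These 4 libraries lay below every WT, miR-302 KO and ESC library and far above the double KO. The ESC libraries were close to each other whichever cluster they lacked, at 92.7 and 86.2 CPM for miR-290 KO and 109 and 88.5 CPM for miR-302 KO.

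By group mean, Pla2g1b was ordered as WT iPSC (160.2 CPM ± 50.3, SD, n = 3), miR-302 KO iPSC (99.2 ± 21.1, n = 2), miR-302 KO ESC (98.6 ± 14.3, n = 2), miR-290 KO ESC (89.5 ± 4.58, n = 2), miR-290 KO iPSC (35.2 ± 5.14, n = 2) and the double KO at 0. The miR-302 KO iPSC and the ESC groups in the middle of this order differed by less than their spread. A count of 0 among the 65250238 recovered double KO reads allows up to 3 reads, or 0.0460 CPM, and covers counting error only. Against that limit over the group, Pla2g1b was at least 3481-fold higher in WT iPSC, at least 2067-fold higher in miR-302 KO iPSC and at least 857-fold higher in miR-290 KO iPSC.

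Ephx2, the soluble epoxide hydrolase, had 0 reads in 1 double KO library and 1 read in each of the other 3, which is 0.07 CPM in colony 1 library 2 and 0.06 CPM in both libraries of colony 2. The WT iPSC libraries were tightly placed at 155, 147 and 138 CPM. No library of any KO group reached them. In miR-290 KO iPSC the level was 72.9 and 105 CPM in colony 1 and 30.4 and 63.8 CPM in colony 2, and in miR-302 KO iPSC it was 71.7 and 27.6 CPM in colony 1 and 99.4 and 74.5 CPM in colony 2. The lowest of these, 27.6 CPM, came from the library that stood apart, without which the miR-302 KO mean was 79.3 CPM in place of 68.3. The ESC libraries fell within the same span, at 83.9 and 73.9 CPM for miR-290 KO and 69.5 and 52.0 CPM for miR-302 KO.

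By group mean, Ephx2 was highest in WT iPSC (146 CPM ± 8.19, SD, n = 3) and then ran through miR-290 KO ESC (78.9 ± 7.10, n = 2), miR-302 KO iPSC (68.3 ± 26.4, n = 2), miR-290 KO iPSC (67.9 ± 29.4, n = 2) and miR-302 KO ESC (60.8 ± 12.4, n = 2) to the double KO. The single KO iPSC groups overlapped with each other and with both ESC groups, so their place in the order is within their spread. The ESC groups did not overlap, with 73.9 to 83.9 CPM in miR-290 KO and 52.0 to 69.5 CPM in miR-302 KO. With 3 reads in the double KO, the level in WT iPSC was 3200 times as high (95% exact interval 1095 to 15521, counting error only), and that in miR-302 KO ESC, the lowest of the other groups, 1306 times as high (446 to 6340).

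Rpl39l, the ribosomal paralog, had 0 reads in each of the 4 double KO libraries, in which its parent Rpl39 had 108282 reads together. Reads of Rpl39 were thus not assigned to the paralog there, although how reads were split between the copies in the other libraries is not given in the sources used here. The WT iPSC libraries were spread widely at 49.3, 37.7 and 114 CPM. The miR-302 KO iPSC had 109.6 and 84.0 CPM in colony 1 and 143 and 86.2 CPM in colony 2. Those of miR-290 KO had 29.3 and 20.0 CPM in colony 1 and 8.60 and 5.59 CPM in colony 2. In ESC the genotypes were apart as well, with 29.0 and 16.8 CPM in miR-290 KO and 81.9 and 88.1 CPM in miR-302 KO. All 6 libraries without miR-290 alone, iPSC and ESC, lay below all libraries of WT and of miR-302 KO.

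By group mean, Rpl39l was ordered as miR-302 KO iPSC (106 CPM ± 12.5, SD, n = 2), miR-302 KO ESC (85.0 ± 4.38, n = 2), WT iPSC (66.8 ± 40.9, n = 3), miR-290 KO ESC (22.9 ± 8.68, n = 2), miR-290 KO iPSC (15.9 ± 12.4, n = 2) and the double KO at 0. The means of WT iPSC and miR-302 KO ESC, and those of the miR-290 KO groups, differed by less than their spread. The colonies of miR-290 KO iPSC differed 3.47-fold, 24.7 against 7.10 CPM, the widest gap between colonies among the 3 genes. Rpl39l was at least 1372-fold higher in WT iPSC and at least 381-fold higher in miR-290 KO iPSC than the 3 reads that the double KO count allows.

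The question of what each cluster alone does to the 3 genes was asked with limma on the log2 values of all 12778 genes, with Benjamini-Hochberg adjustment over all of them. Pla2g1b fell in miR-290 KO iPSC against WT iPSC, with a log2 difference of -2.21 (SE 0.35, adjusted p = 0.0108 by limma). In this comparison 1.57% of all genes passed an adjusted p of 0.05, 155 higher and 46 lower (0.360%), a split that became 98 and 80 under median-of-ratios scaling. The call was not kept without WT library 1 (adjusted p = 0.0602) or without miR-290 KO colony 2 (adjusted p = 0.189), at -1.99 in both. Rpl39l missed the threshold at a log2 difference of -2.18 (SE 0.50, adjusted p = 0.051), and Ephx2 missed it at -1.23 (SE 0.32, adjusted p = 0.0736). Each of these genes passed under 6 and did not pass under 16 of 22 alternative settings. Without miR-290 KO colony 2 the log2 difference was -1.29 for Rpl39l (adjusted p = 0.498) and -0.74 for Ephx2 (adjusted p = 0.583). The authors' deposited table for this comparison, which lists 1429 genes, holds all 3. Its log2 fold changes are -2.31 (SE 0.32) for Pla2g1b, -1.27 (SE 0.31) for Ephx2 and -2.20 (SE 0.68) for Rpl39l. Its adjusted p-values are 2.21e-10, 0.00156 and 0.0187, from the authors' own test. That test and its unit of replication were not reproduced here. Those p-values and the limma ones on colony averages are therefore not on like terms.

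For miR-302 KO iPSC against WT iPSC, which shares the WT libraries with the comparison above, none of the 3 genes passed by limma with this adjustment, in a comparison where 0.0313% of all genes did (4 genes, with 1928 at an unadjusted p under 0.05). The log2 differences were -0.67 for Pla2g1b (SE 0.35, adjusted p = 0.371), -1.23 for Ephx2 (SE 0.32, adjusted p = 0.233) and 0.80 for Rpl39l (SE 0.50, adjusted p = 0.441). Ephx2 had the same difference from WT in both single KO groups. It passed here without miR-302 KO colony 2 (log2 difference -1.71, adjusted p = 0.0147), a setting in which 1273 genes passed in all and the group is colony 1 alone, assumed to vary like the other groups and holding the library that stood apart. Without that library the difference was -0.89 (adjusted p = 0.423). The authors' deposited table for this comparison lists 43 genes, and none of the 3 is among them.

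Set against each other, the single KO iPSC differed in Rpl39l, which was lower in miR-290 KO with a log2 difference of -2.97 (SE 0.55, adjusted p = 0.0234 by limma). Of all genes, 2.25% passed in this comparison, 237 higher and 50 lower (0.391%), and 151 and 81 under median-of-ratios scaling. The Rpl39l call was not kept without miR-290 KO colony 2 (-2.09, adjusted p = 0.144), without miR-302 KO colony 1 (-3.08, adjusted p = 0.149) or with only the groups compared in the fit (adjusted p = 0.0986). Pla2g1b had a difference of -1.55 (SE 0.38, adjusted p = 0.0543 by limma), which just missed the threshold. For Ephx2 it was 0.00 (SE 0.35, adjusted p = 0.997), so the 2 single KO genotypes could not be ordered for this gene.

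**Figure D2:**
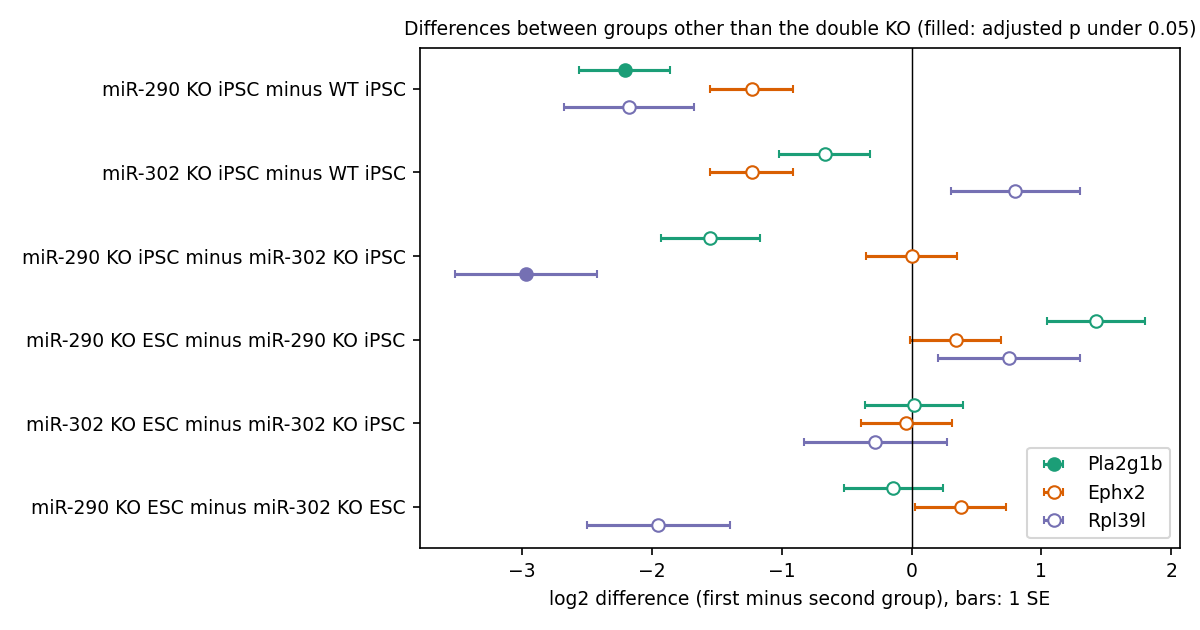
Log2 differences of the 3 genes in 6 comparisons that leave out the double KO, with bars of 1 SE from the fit over 13 samples and filled points where the adjusted p was under 0.05. The filled points are Pla2g1b in miR-290 KO against WT iPSC, at -2.21, and Rpl39l in miR-290 KO against miR-302 KO iPSC, at -2.97.

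The ESC groups show the same genotypes without reprogramming. For miR-290 KO ESC against miR-290 KO iPSC, limma called 0% of the genes at this threshold, with 492 at an unadjusted p under 0.05, so no gene could be told apart by this adjustment. Pla2g1b was 1.42 higher in the ESC on the log2 scale without passing (SE 0.38, adjusted p = 0.989, unadjusted p = 0.00267 by limma). Ephx2 and Rpl39l differed by 0.34 and 0.75 (SE 0.35 and 0.55, adjusted p = 0.999 for both by limma). For miR-302 KO ESC against miR-302 KO iPSC, limma again called 0% (1343 genes at an unadjusted p under 0.05), and the differences were 0.02, -0.04 and -0.28 for Pla2g1b, Ephx2 and Rpl39l. Whether the ESC to iPSC difference itself depended on the genotype was tested as an interaction in the same limma fit, and it did not pass for Pla2g1b (1.40, SE 0.54, adjusted p = 0.984), Ephx2 (0.37, SE 0.49) or Rpl39l (1.03, SE 0.77).

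Between the ESC genotypes, 0.587% of all genes passed by limma and none of the 3 did. Rpl39l was lower in miR-290 KO than in miR-302 KO ESC without passing (log2 difference -1.95, SE 0.55, adjusted p = 0.151, unadjusted p = 0.00362), the same direction as in iPSC. Pla2g1b, which was lower in miR-290 KO than in miR-302 KO iPSC without passing, had a log2 difference of -0.14 in ESC (SE 0.38, adjusted p = 0.928 by limma). Ephx2 had one of 0.38 (SE 0.35, adjusted p = 0.714 by limma).

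How particular near-absence is was counted over the 12239 gene names with recovered reads. At least 10 CPM in every group other than the double KO was reached by 7056 genes, and 27 of these (0.383%) had at most 3 reads in the double KO, 12 of them 0. A further 26 had 4 to 10 reads and lie just outside. Sorted by the lowest of the other group means, Ephx2 (60.8 CPM) came first and Pla2g1b (35.2 CPM) next, and Rpl39l (15.9 CPM) was at rank 15. The 3 genes were chosen on these same values. Their being among the 27 and their ranks were thus largely fixed by that choice and are a description. The genes at ranks 3 to 10 were Mcf2, Myo1f, Cdx1, Trim44, Foxd3, Dpp4, 1700029P11Rik and 1700061G19Rik. Mcf2 followed Pla2g1b closely with 0 double KO reads and a lowest group of 34.7 CPM, also miR-290 KO iPSC. Foxd3, a forkhead factor of pluripotent cells, had 0 double KO reads and 22.9 CPM in its lowest group. Rpl10l, a paralog of the ribosomal protein Rpl10, was at rank 13 with 2 double KO reads and 17.8 CPM in its lowest group, and was chosen for mention here after its values were seen.

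**Figure D3:**
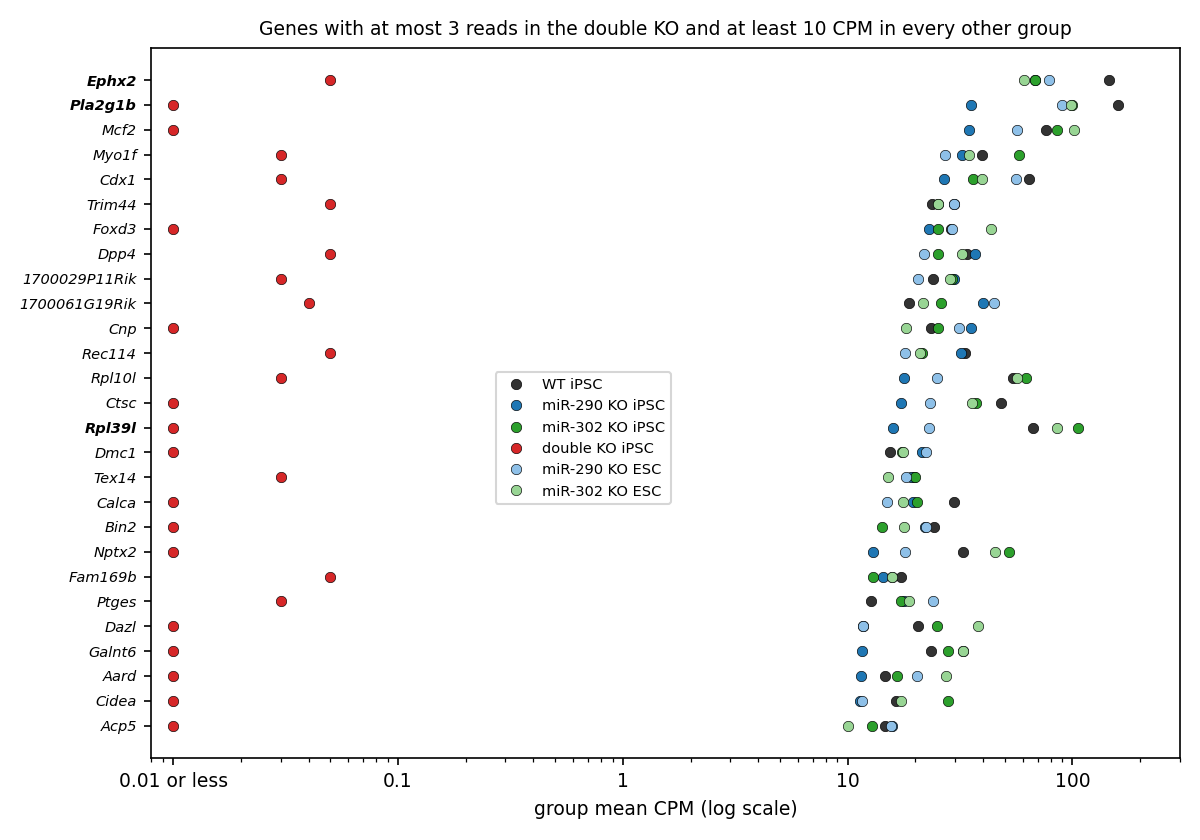
Group mean CPM on a log axis for the 27 genes with at most 3 double KO reads and at least 10 CPM in every other group, sorted by the lowest of the other groups and with the 3 genes described here in bold. Red points, the double KO, lie at or below 0.05 CPM, and values at or under 0.01 CPM are drawn at the left edge.

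The other phospholipases A2 went in both directions. Of 11 measured, 1 rose and 3 fell in the double KO against WT iPSC by limma, in a comparison where 49.0% of all genes passed, 27.4% higher and 21.5% lower (2781 and 3493 genes under median-of-ratios scaling, 3502 and 2753 without it). Their median log2 difference was -0.56 against 0.16 over all genes, which became -0.79 against -0.08 under that scaling. Pla2g10, the group X secreted enzyme, fell from 11.8 CPM ± 1.71 (SD, n = 3) to 1 read in all. It was thus 773 times lower (95% exact interval 138 to 30567, counting error only). Pla2g5, another secreted enzyme, fell by 3.54 on the log2 scale (SE 0.39, adjusted p = 1.26e-05 by limma), and the lysosomal Pla2g15 by 0.78 (SE 0.28, adjusted p = 0.0343), a call lost with the replicate block (adjusted p = 0.12) and without double KO colony 1, double KO colony 2, WT library 1 or WT library 3 in turn. Pla2g7, the platelet-activating factor acetylhydrolase, rose from 0.43 CPM ± 0.50 (n = 3) to 107 CPM ± 32.8 (n = 2). None of the 11 passed in miR-290 KO or miR-302 KO against WT, where 1.57% and 0.0313% of all genes did, so a count of 0 is near that background.

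Of 17 measured enzymes of epoxide and eicosanoid metabolism, to which Ephx2 belongs, 3 rose and 5 fell in the double KO against WT (3 and 7 under median-of-ratios scaling), with a median log2 difference of -0.30 against 0.16 over all genes. The share called is near the 49.0% of all genes, so the count says nothing particular to these enzymes, and single genes are given for their values. Ephx1, the microsomal epoxide hydrolase, rose from 6.77 CPM ± 1.39 (SD, n = 3) to 543 CPM ± 338 (n = 2), opposite to the soluble enzyme. Cyp2s1, a cytochrome P450, rose from 3.07 CPM ± 1.40 to 173 CPM ± 137, a log2 difference of 5.61 (SE 0.62, adjusted p = 1.34e-05 by limma). Ptgs2, an inducible cyclooxygenase, rose from 2 reads in WT to 1.96 CPM ± 0.54, still a low level. The rise was 50-fold (95% exact interval 14 to 420, counting error only). In miR-290 KO iPSC Ptgs2 was at 1.71 CPM ± 1.95, which did not pass against WT. Ptges, a prostaglandin E synthase, fell from 12.7 CPM ± 0.75 to 2 reads in all, 413 times lower (114 to 3416). Cyp2c44, an arachidonic acid epoxygenase, had 0 double KO reads and was at least 35-fold lower, and Alox12, a lipoxygenase, fell by 3.57 on the log2 scale (SE 0.69, adjusted p = 0.00108 by limma). None of the 17 passed in either single KO against WT, again near the 1.57% and 0.0313% of all genes.

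Among 8 ribosomal protein genes of the paralog list, Rpl39 included and Rpl39l left out, 5 fell and none rose in the double KO against WT, with a median of -0.85, where 49.0% of all genes passed, 21.5% lower, with a median of 0.16. The count was 3 without double KO colony 1 and 3 without WT library 3. Rps4l, a paralog of Rps4x, fell from 857 CPM ± 110.3 (SD, n = 3) to 2.40 CPM ± 1.33 (n = 2). Rpl10l fell from 54.4 CPM ± 9.21 to 2 reads in all, 1752 times lower (485 to 14477, counting error only). Rpl3l, Rpl36al and Rpl7l1 fell by 2.71, 0.85 and 0.48 on the log2 scale. The calls of Rpl3l and Rpl7l1 were both lost without double KO colony 1 or WT library 3, and that of Rpl7l1 also without double KO colony 2, WT library 2 or either miR-290 KO ESC library, without the trend and with the replicate block (adjusted p = 0.13). Rpl39 itself was at 3068 CPM ± 476 in WT and 1660 CPM ± 72.8 in the double KO, a log2 difference of -0.84 that did not pass (SE 0.40, adjusted p = 0.097 by limma). Of the 7 parent genes listed for the other paralogs, 4 fell, against the same background, with a median of -0.67 and a largest fall at Rpl36a, with a log2 difference of -1.19 (SE 0.19, adjusted p = 0.000263 by limma). Rpl10l also fell in miR-290 KO iPSC against WT (log2 difference -1.67, adjusted p = 0.0281 by limma), with 17.8 CPM there and 62.3 CPM in miR-302 KO iPSC. No other gene of either ribosomal list passed in a single KO against WT. As these lists were chosen with earlier results of these data known, their counts and p-values are a description.

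Because Rpl39l is known from male germ cells, germline genes were looked at beside it. The list was put together with earlier results of these data known, and 16 of its 23 genes are in the matrix, 8 of them with 0 double KO reads and so present only through the groups where they are high. A fall in the double KO was largely fixed by that choice, and the values below are a description. Dazl, an RNA-binding protein of germ cells, was at 20.6 CPM ± 3.33 (SD, n = 3) in WT and at 0 double KO reads, at least 441-fold lower. Stra8, which marks entry into meiosis, was at least 360-fold lower. Tex19.1 fell from 169 to 0.47 CPM. Hormad1, of the meiotic chromosome axis, fell to 3 reads (281 times lower, 96 to 1367, counting error only). Ddx4 and Mael, both germ cell proteins, fell to 1 read each. Sycp3, of the synaptonemal complex and named after its values were seen, and Stra8 also fell in miR-290 KO iPSC against WT. Their log2 differences were -2.41 (adjusted p = 0.0187 by limma) and -4.16 (adjusted p = 0.0355 by limma). Of the 16 genes, only these 2 were called there, in a comparison where 1.57% of all genes passed, 0.360% lower. As the list was put together with earlier results known, these p-values are a description too.

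**Figure D4:**
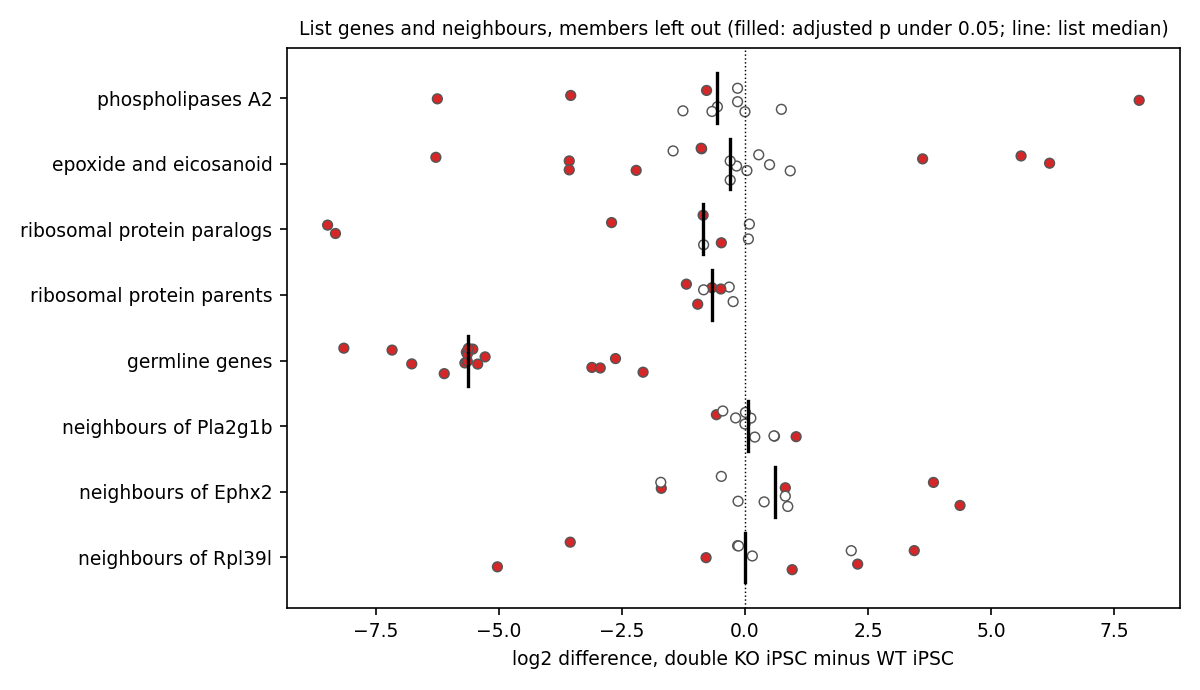
Log2 difference between double KO and WT iPSC for the genes of each list and for the 10 measured neighbours of each of the 3 genes, which are themselves left out; filled points passed an adjusted p of 0.05 and bars mark medians. The germline genes lie far to the left, as their choice largely fixed, while the neighbour medians are 0.07, 0.60 and 0.01 for Pla2g1b, Ephx2 and Rpl39l.

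The chromosomal neighbours, the 5 nearest measured genes on each side, were described against the background of this comparison, in which 49.0% of all genes passed, 27.4% higher and 21.5% lower. Around Pla2g1b, 1 of 10 rose (Gatc, by 1.04) and 1 fell (Rplp0, by 0.58) in the double KO against WT by limma, which became 0 and 3 under median-of-ratios scaling, and leaving out samples in turn gave 0 to 3 calls in all (0 without double KO colony 2, and 1 without double KO colony 1, WT library 1 or WT library 2). Its nearest measured neighbours were Sirt4, 3.3 kb away, with a log2 difference of 0.01 (SE 0.51, adjusted p = 0.986 by limma), and Msi1, 10.4 kb away, with 0 reads in WT and in the double KO. Around Ephx2, Pbk, Clu and Dpysl2 rose by 0.82, 3.83 and 4.37 and Esco2 fell by 1.70 (2 rose and 1 fell under that scaling). The nearest were Ptk2b at 28.7 kb (0.87, SE 0.39, adjusted p = 0.0829 by limma) and Gulo at 75.1 kb (-1.71, SE 0.79, adjusted p = 0.0922 by limma).

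Around Rpl39l, 3 of 10 rose and 3 fell (2 and 3 under median-of-ratios scaling), a share near that of all genes. Its nearest neighbour Atf7ip2, 17.7 kb away, fell by 3.55 on the log2 scale (SE 0.29, adjusted p = 1.17e-06 by limma). Emp2, at 106.8 kb, rose by 3.44, and Tekt5, a tektin of sperm flagella at 183.0 kb, fell to 1 read. Tekt5 was 326 times lower (95% exact interval 58 to 12915, counting error only). On the other side the nearest measured gene, 1810013L24Rik, was 1311.3 kb away with a difference of -0.13. Farther out, Pmm2 and Carhsp1 rose by 0.96 and 2.29 and Usp7 fell by 0.79. The rises of Gatc, Pbk and Pmm2 did not pass under median-of-ratios scaling. Gatc was also lost without double KO colony 2, Pmm2 without either double KO colony, WT library 1 or WT library 2, and Usp7 without double KO colony 1 or WT library 3 and with the replicate block (adjusted p = 0.0744). Pbk was lost under 11 settings, among them either double KO colony, WT library 1 or WT library 3 left out, libraries as samples, no trend and the replicate block (adjusted p = 0.116).

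Likeness of pattern was measured as Pearson's r of the log2 values with every gene and is a description, since samples of a genotype are not independent points and, over all 13 samples, the double KO sets most of the spread. Over 13 samples the closest genes to Pla2g1b were Lpar1, Gtsf1l, Usp48, Ctsc and Zfp459 (0.991 to 0.990), to Ephx2 Tpd52, Cbx7, Dppa5a, Calca and Sox15 (0.995 to 0.993) and to Rpl39l Fgf10, Rpl10l, Prdm14, Lpar1 and Dio3 (0.993 to 0.984). Without the double KO, over 11 samples, the lists changed. Pla2g1b was then closest to Taldo1, Pigyl, Gls2, Fblim1 and 1700001L05Rik (0.943 to 0.919), and Ephx2 to Ndufs3, Tmem135, Obox6, Zfp607 and Nle1 (0.931 to 0.901). Rpl39l was closest to Cndp2, Agpat2, Platr10, Fgf10 and Dnase2a (0.983 to 0.938), Fgf10 being the gene found both with and without the double KO. Among the 3 genes, r over 13 samples was 0.98 for Ephx2 and Pla2g1b, 0.96 for Pla2g1b and Rpl39l and 0.93 for Ephx2 and Rpl39l, and over the 11 samples 0.57, 0.68 and 0.20. The 3 genes were thus alike where the double KO was included, which their choice largely fixed. They were less alike across the other groups, and least so for Ephx2 and Rpl39l. Over 13 samples, 36 genes were closer to Ephx2 than Pla2g1b was, and 461 were closer to it than Rpl39l was. For Pla2g1b, 174 genes were closer than Rpl39l was.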

How the data were processed

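The matrix deposited by the authors gives log2 expression of 12778 genes in the 19 libraries used here (6 columns belong to no sample used here and were not read), and the deposited comparison tables hold log2 fold changes, p-values, a test statistic (a score with no fixed range) and mean normalized counts, a signal per gene, per the file headers. The submitters' processing notes name Trim Galore 0.66, STAR, Salmon 1.4.0, FastQC 0.11.9, MultiQC, limma, DESeq2 1.34.0 and mm10, without roles. The values behave as log2(CPM plus a prior) with an offset that is fixed for each gene. Solving for that constant gave whole reads, within 0.02 of a read in at least 13 libraries, for 12240 genes (95.8%), with 99.6% of their values whole. After normalization and up to a common factor for each table, these matched the authors' mean normalized counts within 5% for 100% of shared genes.

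The log2 values as deposited were fitted with limma 3.58.1 (R 4.3.3, trended moderated spread, 7 residual degrees of freedom) over 13 samples in 6 groups, after averaging the 2 libraries of a colony, and the script was tested on simulated data. Reads and CPM only describe levels, and every exact interval of a ratio covers counting error only, not the spread between samples. Adjusted p-values cover all genes of a comparison. Named genes were the 3 chosen, the listed genes called in the double KO (at most the 6 largest changes per list, plus Rpl39; Sycp3 was added after its values were seen), the nearest and the called neighbours, the 5 most alike and the first 10 of the near-absent. The members and lists were chosen with earlier results of these data known, so counts and p-values of listed genes are a description. Lists held other phospholipases A2, epoxide and eicosanoid enzymes, ribosomal paralogs, their parents, germline genes and cell type markers. Markers of other cells with reads were few: 3 of 10 for fibroblasts (0.28 to 0.98 CPM in the double KO, 2.27 to 14.0 CPM elsewhere), 2 of 8 for endoderm (0.23 to 2.58 and 0.99 to 11.8 CPM) and 5 of 6 for trophoblast (3.62 to 43.9 and 25.7 to 184 CPM). Replicate numbers were checked for pairing: deviations of same-numbered samples correlated between -0.27 and 0.18, so the numbers were not taken to pair samples. Alternatives were another scaling, another prior, a filter on low values, libraries as samples, no trend, only the groups compared, the replicate block, and each sample or doubtful library left out. Sequences came from RefSeq tables of GRCm38.p6 and 3′ UTRs from GENCODE annotation; no sequence upstream of Ephx2 was used here.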

Additional observations from a re-analysis of the deposited data

How the results depend on the processing

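With the replicate block, none of the 18 differences between groups changed its side of the threshold, but listed genes near it did (Pla2g15, for example, at -0.66); Pla2g1b in miR-290 KO against WT was -2.19, and 55 genes passed there in place of 201 (137 in place of 287 for miR-290 KO against miR-302 KO iPSC, 28 in place of 75 between the ESC, 2 in place of 4 for miR-302 KO against WT). For miR-290 KO against WT, Ephx2 passed under median-of-ratios scaling (-1.37), with log2(CPM + 1) (-1.22) and without colony 1 library 2 of miR-302 KO (-1.23), and Rpl39l under the same settings (-2.32, -2.10, -2.18), with genes of at least 1 CPM and with each library as a sample (both -2.18). Pla2g1b in miR-290 KO against miR-302 KO iPSC passed under that scaling (-1.73), with log2(CPM + 1) (-1.52), with each library as a sample and without the trend (both -1.55), and Rpl39l there did not with only the groups compared (-2.97). Small differences changed sign: Ephx2 between the single KO iPSC under that scaling (-0.18), without the library with the fewest reads (-0.26) and without colony 1 library 2 of miR-302 KO (-0.34), and Pla2g1b in miR-302 KO ESC against iPSC under that scaling (-0.09). Leaving out each sample in turn gave, for miR-290 KO against WT iPSC, -2.46 to -1.99 (Pla2g1b), -1.72 to -0.74 (Ephx2) and -3.06 to -1.29 (Rpl39l). For miR-302 KO against WT it gave -1.71 to -0.76 (Ephx2). Between the single KO iPSC it gave -1.77 to -1.32 (Pla2g1b), -0.48 to 0.49 (Ephx2) and -3.86 to -2.09 (Rpl39l). For miR-290 KO ESC against iPSC it gave -0.15 to 0.82 (Ephx2) and -0.13 to 1.64 (Rpl39l), for miR-302 KO ESC against iPSC -0.20 to 0.24 (Pla2g1b) and -0.51 to 0.44 (Ephx2), and between the ESC -0.29 to 0.00 (Pla2g1b). Counts called were 3 to 6 for ribosomal paralogs and 0 to 3 for neighbours of Pla2g1b, and the ribosomal parents had 2 in place of 4 with log2(CPM + 1), where genes without recovered reads are not tested. Over all settings, 2 to 409 genes passed for miR-290 KO against WT, 2 to 1273 for miR-302 KO against WT, 6 to 1279 between the single KO iPSC, 0 to 7 and 0 to 955 for ESC against iPSC of miR-290 KO and miR-302 KO, and 0 to 357 between the ESC. The cause of these changes was not tested. Groups of 2 samples limit the precision throughout.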
